A study of Mus musculus with 30 samples.

Results

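Distal chromatin sites that gained signal with doxycycline in mouse tail-tendon fibroblasts, and that were missing from the list of sites changed by blebbistatin in the presence of doxycycline, are described here. A site was taken from the authors' deposited table of doxycycline against no drug when it was annotated as intron or Intergenic, had the higher level with doxycycline, and shared no base with any row of the authors' deposited table of blebbistatin with doxycycline. This left 3626 member sites, 1787 in introns and 1839 intergenic, of 7613 rows in the doxycycline table and of 5553 distal gains. The other 1927 distal gains overlapped the blebbistatin table and serve as the comparison. The members were thus selected on the deposited levels, folds and FDR of these 2 tables, so they are given as a description and were not tested.

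The series examined mechanical cues and the co-regulators Yap and Taz in primary fibroblasts of wildtype tail tendon, in 30 libraries with 3 per group. Cells were treated in medium with 0.1% serum, which all groups share. The 12 libraries of the doxycycline experiment were genomic DNA from cells given neither drug, doxycycline at 10 ng/mL, blebbistatin at 10 µM, or both. Their labels name ATAC, an assay of open chromatin, as the only genomic DNA protocol, and state neither what doxycycline induced nor any transgene. A separate set without doxycycline compared DMSO, the solvent, with blebbistatin at 10 µM and with Y27632 at 30 µM, in 9 ATAC and 9 RNA libraries. Treatment times are not given, and the labels do not say whether replicates were separate cultures or animals, so p-values measure the spread between these libraries. No sample of the doxycycline experiment had RNA analysed here.

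Distal elements such as enhancers act on genes from within introns or from far away, and they become accessible when transcription factors open the chromatin. Yap and Taz bind no DNA themselves. They are brought to distal elements mainly by TEAD factors, often beside AP-1, and they enter the nucleus when a cell spreads and contracts. Blebbistatin blocks the motor activity of myosin II, Y27632 acts on kinases, and both lower contractility.

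The letters below are chosen examples of TEAD matches and of transcription starts, and do not describe members in general. TEAD matches were recorded only at listed ATAC blebbistatin sites, which overlapped 167 members (4.61%). The authors' deposited table of ATAC blebbistatin sites records matches to 1 TEAD motif with their letters, and 4 of the matches at ATAC sites that overlap members are printed because those sites had some of the deepest falls with blebbistatin. Capitals mark the letters GGAATG or their reverse complement CATTCC, the core that TEAD factors bind. The first pair lies in the Col5a2 site at chr1:45580408-45580836, starting at bases 232 and 241 of the site, and the second pair in the 4930486I03Rik site at chr1:20414796-20415175, starting at bases 89 and 120. All 4 printed matches hold the core, as did 106 of the 158 matches on members (67.1%). Match 3 of the 4930486I03Rik site, at base 233, lacks the core and is not printed. The Cyyr1 site fell as far as the Col5a2 site but had 0 recorded matches. The build is mm10.
Col5a2 match 1: tcaCATTCCt
Col5a2 match 2: tgaCATTCCt
4930486I03Rik match 1: tGGAATGcta
4930486I03Rik match 2: ttgCATTCCt

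Start windows of RefSeq genes on GRCm38.p6, from 250 bases before to 50 bases after an annotated start, overlapped 55 members (1.52%), in 63 windows of 57 symbols. Of these windows 37 belonged to predicted genes whose symbol begins with Gm, and 24 of the 55 members were annotated to a CpG island. The overlapping part of 5 windows is printed on the gene's own strand, chosen after their values were seen: 3 because their members are annotated to list genes (Ccn1, Ptpn14 and Bmp4), 1 because it holds 3 TEAD cores, and 1 as a CpG island at the start of Ercc1, a DNA repair gene. Capitals mark GGAATG (TEAD core), TGANTCA (AP-1), CCGGAAG (ETS) and GGGCGG (GC box), on either strand.
Gm40164 window in the Ccn1-annotated member, chr3:145632944-145633223, minus strand: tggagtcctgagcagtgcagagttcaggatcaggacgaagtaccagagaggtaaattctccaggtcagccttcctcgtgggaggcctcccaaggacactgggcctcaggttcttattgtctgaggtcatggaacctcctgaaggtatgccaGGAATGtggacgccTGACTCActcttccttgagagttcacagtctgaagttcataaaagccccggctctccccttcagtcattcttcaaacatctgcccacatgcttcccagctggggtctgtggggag
Gm51739 window in the Ptpn14-annotated member, chr1:189778459-189778670, minus strand: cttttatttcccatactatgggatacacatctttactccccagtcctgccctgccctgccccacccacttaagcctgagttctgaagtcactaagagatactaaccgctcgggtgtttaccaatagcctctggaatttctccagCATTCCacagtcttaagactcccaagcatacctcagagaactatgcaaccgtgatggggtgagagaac
Gm15222 window in the Bmp4-annotated member, chr14:46387228-46387527, plus strand: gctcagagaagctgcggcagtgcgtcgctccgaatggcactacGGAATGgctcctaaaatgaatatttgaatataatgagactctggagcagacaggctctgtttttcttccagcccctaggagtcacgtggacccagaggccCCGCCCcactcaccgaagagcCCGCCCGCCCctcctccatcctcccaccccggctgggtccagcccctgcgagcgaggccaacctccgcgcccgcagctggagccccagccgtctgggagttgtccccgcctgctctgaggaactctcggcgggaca
Gm33981 window in an intergenic member, chr10:96958815-96959006, minus strand: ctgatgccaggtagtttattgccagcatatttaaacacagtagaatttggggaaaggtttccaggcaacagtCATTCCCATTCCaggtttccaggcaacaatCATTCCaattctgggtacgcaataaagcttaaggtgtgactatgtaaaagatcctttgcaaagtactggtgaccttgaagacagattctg
Ercc1 window in a CpG island member, chr7:19344939-19345120, plus strand: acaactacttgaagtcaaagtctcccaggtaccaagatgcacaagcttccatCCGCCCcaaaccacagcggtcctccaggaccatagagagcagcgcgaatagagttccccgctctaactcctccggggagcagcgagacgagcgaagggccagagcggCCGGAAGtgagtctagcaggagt

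Searched over their whole length of 300 bases, the windows on members held the TEAD core GGAATG in 17 of 63 (27%), against 14.6% of all 32544 windows. TGANTCA was found in 14.3% against 7.79%, CCGGAAG in 17.5% against 8.91%, GGGCGG in 42.9% against 35.9%, and the CRE letters TGACGTCA in 0% against 1.8%. Adjacent matches may share bases, as the GC boxes of the Gm15222 window do. The 63 windows lie on 55 members, so neighbouring windows may count the same letters more than once. The share of predicted genes among all 32544 windows was not compared. In the overlapping parts alone, which are often shorter, GGAATG was found in 15 and GGGCGG in 23 of 63. A match is a description of letters and no measure of binding.

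In the authors' deposited table, the median member rose from a log2 group mean of 5.14 without doxycycline to 6.39 with it, a median log2 fold of 1.17. The folds were crowded at the lower limit of the table, which lists only sites with a log2 fold of at least 1 and an FDR of at most 0.05. The quartiles were 1.07 and 1.33, 642 members were below 1.05, 445 reached 1.5 and 53 reached 2. An estimated 81357 sites had been tested, of which 8.97% were listed as higher with doxycycline. Sites that started lower had larger folds: the median was 1.27 in the lowest quartile of the level without doxycycline, then 1.17 and 1.15, and 1.11 in the highest quartile. That level also enters the fold, and every member had to pass the FDR and fold limits. The trend is thus partly built in and is not read as a result. The 1927 comparison sites had medians of 4.83 without and 6.15 with doxycycline, and a median fold of 1.26. They were also chosen on the group with doxycycline alone, which enters this fold as well. The difference in fold between members and comparison sites is therefore not read as a result. The site tables hold group means only, so no spread between libraries can be given for any site value, and the depth is unknown.

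**Figure D1:**
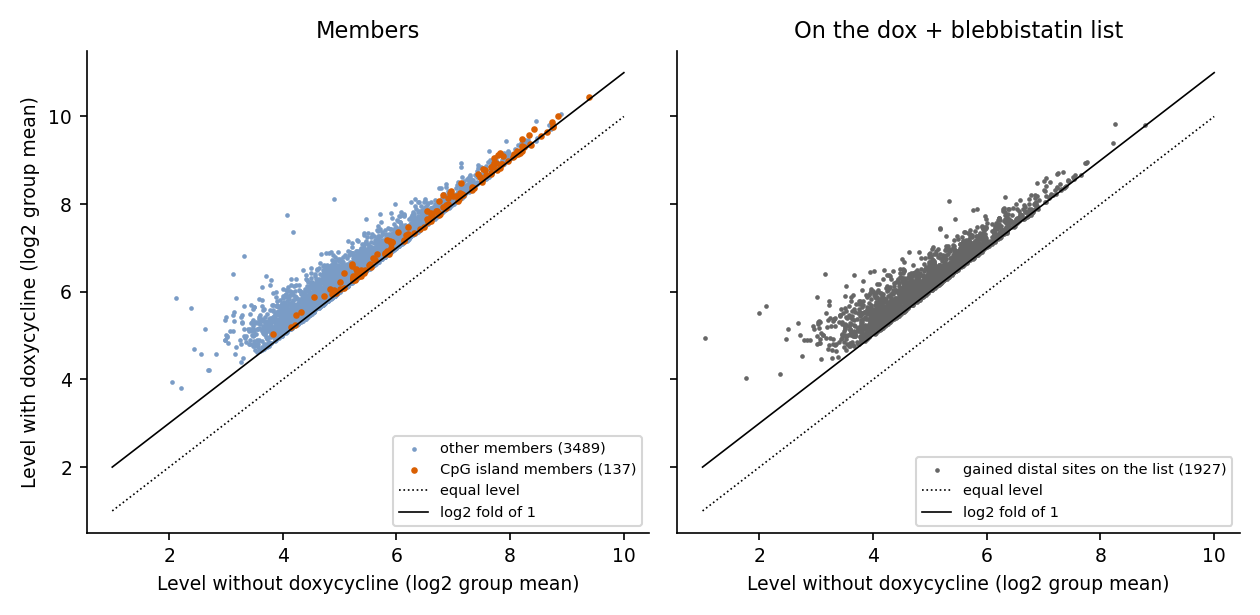
Level of each site with doxycycline against its level without, both log2 group means from the authors' deposited table, for the 3626 members (left, with 137 CpG island members in orange) and the 1927 comparison sites (right). The solid line is a log2 fold of 1 and the dotted line an equal level. Points of both kinds hug the solid line, and the CpG island members lie along its upper end.

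Absence from the blebbistatin table does not show that a member kept its signal. That table lists 8.75% of an estimated 72532 sites tested, while 65.9% of them reached the FDR before the fold limit was applied, so a smaller fall leaves a site off the table. The edge was sharp in the comparison sites too: 1688 of them had the same start and end as a blebbistatin row, all lower with blebbistatin, at a median log2 fold of -1.18, and 317 of these lay between -1.05 and -1. Just inside the doxycycline limit were the members annotated to Hils1 (chr11:94957786-94958591, 8.45 to 9.45), Morf4l1 (chr9:90113676-90114867, 8.65 to 9.65) and Ptx3 (chr3:66215684-66216115, 7.01 to 8.01), each at a fold of 1.0. Sites below that limit are not in the table. The nearest member to any blebbistatin row lay 15 bp away, 110 members lay within 500 bp, and 3318 (91.5%) lay more than 5000 bp away. The overlap of an excluded site was at least 75 bp. The 2 tables share the group with doxycycline alone.

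The 3 members with the smallest p-values stood side by side just downstream of Col1a1, the gene for the alpha 1 chain of type I collagen. Col1a1 ends at base 94953042 of chromosome 11. The member at chr11:94954588-94954894, rank 1 of all sites by p-value, rose from 4.90 to 8.12 (FDR 1.75e-47). The member at chr11:94954359-94954574, rank 2, rose from 4.08 to 7.75, a linear fold of 12.6. The member at chr11:94955164-94955341, rank 5, rose from 4.18 to 7.36. A site at 528 bp past the gene's end, annotated as a transcription termination site and so no member, rose from 4.23 to 7.65. These levels were low without doxycycline and rose about equally, whereas the member at 4744 bp past the end started at 8.45 and rose by 1.0. The nearest row of the blebbistatin table to the group was 445279 bp away. The annotation names Hils1 as the nearest start for all of them. In mouse genetics the stretch behind Col1a1 is in common use as an insertion site for doxycycline-inducible transgenes. The labels give the genotype as wildtype, and the presence of a transgene was not tested.

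**Figure D2:**
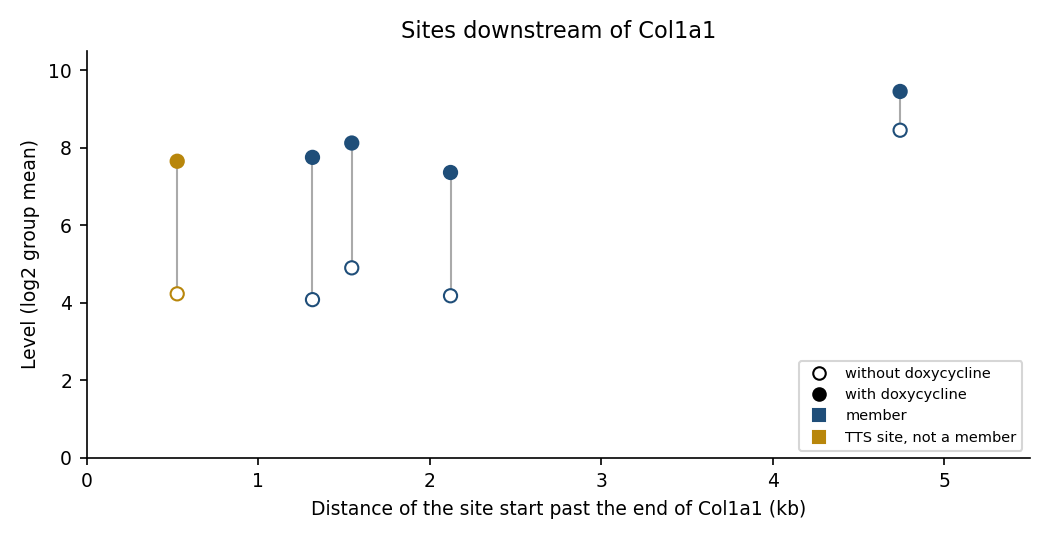
Log2 group mean of 5 sites without (open) and with (filled) doxycycline, against the distance in kb of the site's start from the end of Col1a1, from the authors' deposited table. Blue points are members and gold points the site annotated as a transcription termination site. The first 4 sites rise by 3.18 to 3.66 and the last by 1.0.

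A further cluster of large folds lay on chromosome X. Members at chrX:156234797-156235376 and chrX:156235490-156235644, both annotated to the young LINE subfamily L1_Mus1, rose from 3.31 to 6.81 and from 2.13 to 5.85. The latter had the largest fold of all members, 3.73, from a low level and at rank 3330 by p-value. A member in the satellite IMPB_01 at chrX:156454903-156455234 rose from 3.13 to 6.40. It lay 247 bp from a comparison site at chrX:156455481-156455695, which rose by 3.55. Reads from repeated sequence can map to several copies, so the position of these gains is uncertain. The largest fold of the cluster, 3.91, was at another comparison site, chrX:156455838-156455924 (1.04 to 4.95), annotated to no element. The largest intron fold was 3.24, at a site annotated to Pappa, a protease of IGF-binding proteins (chr4:65184448-65184626, 2.38 to 5.62). The next were 2.69, 2.44, 2.37 and 2.34, at sites annotated to Zfp9, Lnpep, Fgfbp3 and the potassium channel gene Kcnh8. Zfp9 and Fgfbp3 are named for the nearest start, 37264 and 39538 bp away, and the intron may belong to another gene. All 5 intron sites rose from levels of 2.38 to 3.77, below the members' median.

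Members lay a median of 32440 bp from the nearest annotated start, with quartiles of 11540 and 85010 bp. The comparison sites lay farther out, at a median of 48680 bp. Within 1 kb of a start were 123 members (3.39%) and 17 comparison sites (0.882%), and 778 members (21.5%) were more than 100 kb away. The median width was 240 bp, from 75 to 1192 bp.

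CpG islands, stretches rich in CG pairs that cover many promoters, were annotated at 137 members (3.78%) and at 0 of the 1927 comparison sites. None of the 6346 rows of the blebbistatin table carried that annotation, and 2 of the 970 ATAC blebbistatin sites did. All 137 sites so annotated among the 7613 doxycycline sites were members, so none of the 1422 promoter sites there carried it. Absence of the annotation therefore does not show that blebbistatin spared CpG islands. Of the 137, 96 were in introns and 41 intergenic, at a median distance of 724 bp from a start. The 1421 gained promoter sites had medians of 6.83 without and 7.95 with doxycycline, and a median fold of 1.09. The 137 members stood close to these, at 6.74 and 7.84, with a median fold of 1.09, and none reached 1.5. They included members at Actb, which encodes beta-actin (chr5:142906291-142906886, 8.75 to 9.76, 165 bp from the start), at the growth factor gene Bmp4 (chr14:46387228-46387753, 6.99 to 8.18), and near the AP-1 genes Fos (chr12:85485880-85486438, 7.66 to 8.85) and Fosb (chr7:19319982-19320297, 6.94 to 8.25). Distance moved with this annotation: at 5 kb or more from a start it held 34 of 3146 members (1.08%) and 0 of 1781 comparison sites. Level moved with it as well, with 89 of the 137 in the highest quartile of the level without doxycycline and 5 in the lowest. The part of distance and level in the difference was not tested.

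LINE L1 elements ran the other way, with 117 members (3.23%) and 139 comparison sites (7.21%). At 5 kb or more from a start the shares were 3.46% and 7.69%. LTR elements, the remains of retroviruses, were annotated at 348 members (9.6%) and 188 comparison sites (9.76%), and SINEs at 4.14% and 4.62%. Any repeat or small RNA gene was annotated at 20.9% of members and 26.4% of comparison sites. The subfamily ORR1E was the most frequent LTR annotation, with 18 members.

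**Figure D3:**
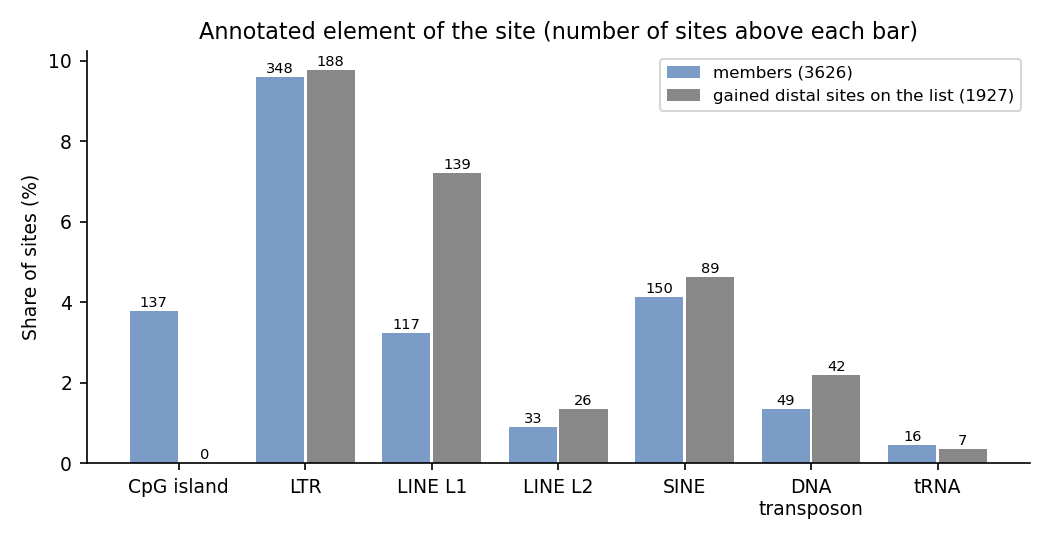
Share of the 3626 members (blue) and of the 1927 comparison sites (grey) annotated to each element, in percent, with the number of sites above each bar, from the authors' deposited tables. CpG islands are at 137 members and 0 comparison sites, L1 elements at 3.23% and 7.21%, and LTR elements at nearly the same share.

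Transfer RNA genes were annotated at similar shares of both sets, 16 members (0.441%) and 7 comparison sites (0.363%). Of the 16, 12 lay between 21 and 24 Mb of chromosome 13, a stretch that also holds the large histone gene cluster. That stretch held 31 members, with a median fold of 1.27, and 14 comparison sites. The tRNA-Ala member at chr13:21233790-21234375 rose from 7.19 to 8.53 and the tRNA-Leu member at chr13:21172724-21172953 from 6.50 to 7.64, both annotated to Trim27. Outside chromosome 13 the tRNA-Asn member at chr3:96402044-96402462 had the largest fold of the 16, 1.60. All 16 rose by 1.01 to 1.60, and the nearest start was a median of 11080 bp away. Transfer RNA genes occur in near-identical copies, so reads may be split between them.

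The members were annotated to 2740 gene names, of which 2124 had 1 member, 439 had 2 and 177 had 3 or more. Of these names 575 (21%) also had a comparison site. Dlc1, a GTPase-activating protein that switches off RhoA at focal adhesions, had the most, with 8 members over 322.9 kb of chromosome 8 and folds of 1.0 to 1.38. The highest level was at chr8:36961899-36962604 (8.14 to 9.2), 9810 bp from the start, and 6 comparison sites were annotated to the same gene. Ddi1 had 7, and Rbfox1, Trim2, Zfp462, Magi3, Trim27, Tns3 and Marcks had 6 each. The Rbfox1 sites were all intergenic, reached 2.19 (chr16:5629756-5630039, 4.67 to 6.86), and lay at least 1157205 bp from any row of the blebbistatin table. Counts were not scaled to gene length. Groups of members within 5000 bp of each other numbered 229 and held 477 members, at most 4 each.

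Open chromatin in the separate ATAC set gave an independent readout of blebbistatin without doxycycline. An overlap with the ATAC blebbistatin table was found for 167 members (4.61%) and for 98 comparison sites (5.09%). Of an estimated 62847 ATAC sites tested, 1.52% were listed as lower, a share of all ATAC sites rather than of sites gained with doxycycline. The 172 ATAC sites on members were 17.7% of the 970 listed, and all 172 fell, as did 98.2% of the table. Their median log2 fold was -1.62, with a range of -2.56 to -1.29, beside -1.58 for the other ATAC sites. No CpG island member and 19 LTR members were among the 167.

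The deepest of these falls, equal in log2 fold to that at Cyyr1, was at Col5a2, which encodes a chain of type V collagen, a regulator of fibril width. The ATAC level there was 7.14 with DMSO and 4.58 with blebbistatin (FDR 0.000155), and the member (chr1:45580376-45580841) rose with doxycycline from 6.87 to 8.45. It lies 77327 bp from the start, in the LTR RLTR53B_Mm, and holds the 2 matches printed above. At 4930486I03Rik the ATAC level was 7.78 with DMSO and 5.51 with blebbistatin, and the member rose from 5.68 to 7.27. At Tpm4, a tropomyosin gene, the values were 7.78 and 5.82, and the member (chr8:72147152-72147677) rose from 7.37 to 8.43. The Timp2 member (chr11:118360640-118361416, 8.47 to 9.52) held 2 ATAC sites, which fell from 7.02 to 5.02 and from 6.43 to 4.51. A TEAD motif was recorded at 110 of the 172 ATAC sites (64%), at 61.8% of the other 798 and at 59 of the 100 on comparison sites. Of 158 matches on members, 106 (67.1%) held GGAATG or CATTCC.

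Fewer ATAC sites were listed with Y27632. Of an estimated 61812 ATAC sites tested, 0.285% were listed as lower with it, and 27 members (0.745%) overlapped 26 of the 207 listed. All 26 fell, at a median log2 fold of -1.34. The ATAC comparisons share the DMSO libraries.

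The doxycycline experiment has its own table of blebbistatin without doxycycline, in which 1219 of 1231 rows were lower. It shares the group with neither drug with the doxycycline table, so its overlap with 125 members is not read as a result. The rows there fell by a median log2 fold of -1.16 in the authors' deposited table, within -1.96 to -1.0. At the Col5a2 site the level was 6.97 with neither drug and 5.02 with blebbistatin alone, and at the Ccn1 site 6.42 and 5.23.

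RNA was the other readout that the choice of members did not use, again in cells without doxycycline. It holds 23375386 to 37061737 reads in genes per library. The mean normalised count was 10 or more for all 12 fibroblast and tendon markers, and the blood markers Cd3e and Hbb-bs were at 0 in every library. Of 7 blood markers 4 reached a mean of 10, and the summed level of the list was 1290 to 1470 with DMSO, 1880 to 2170 with blebbistatin and 1900 to 2260 with Y27632. Of 5 endothelial markers 3 did, and that list summed to 3170 to 3230, 2010 to 2250 and 2950 to 3150, with Pecam1 and Emcn below 10. The fibroblast and tendon markers summed to 825000 to 882000, 782000 to 857000 and 906000 to 952000. The part of other cells in the RNA results was not tested, and fewer cells of a type and less RNA per cell cannot be told apart.

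Genes annotated to a member fell more often than they rose with blebbistatin. Of 2740 names 2714 matched the RNA table, and 1835 passed the filter (a normalised count averaging 10 or more) and were tested. Limma called 1214 of them (66.2%) at the adjusted p threshold of 0.05, of which 485 were higher and 729 lower (26.4% and 39.7%). Over all 14882 genes tested, 53.0% were called, 26.1% higher and 26.9% lower. The median log2 change on the log2(normalised count + 1) scale was -0.07 for genes with a member and 0.00205 for all genes. An absolute log2 change of at least 1 was reached by 197 (10.7%), 75 higher and 122 lower, beside 6.57% of all genes. Of 125 tested genes with 3 or more members, 62 were lower (49.6%) and 20 higher (16%), with a median of -0.28. Genes with a member on the ATAC blebbistatin table had 60 of 113 lower (53.1%), and genes with a CpG island member 48 of 120 (40%). Genes with a comparison site stood close to genes with a member, at 41.5% lower and 24.1% higher of 1007, and 575 names are in both sets. The level and length of genes were not matched between these sets, and no test of the sets was made.

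With Y27632, 875 of 1824 tested genes with a member were called (48%), 375 higher and 500 lower (20.6% and 27.4%). Over all 14833 genes tested, 35.9% were called, 18.1% higher and 17.8% lower. Of these genes 55 reached an absolute log2 change of 1 (3.02%), beside 2.08% of all genes. The 120 genes with a CpG island member had 30 higher and 20 lower. Both RNA comparisons share the 3 DMSO libraries, and the difference between the 2 treatments was not tested.

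**Figure D4:**
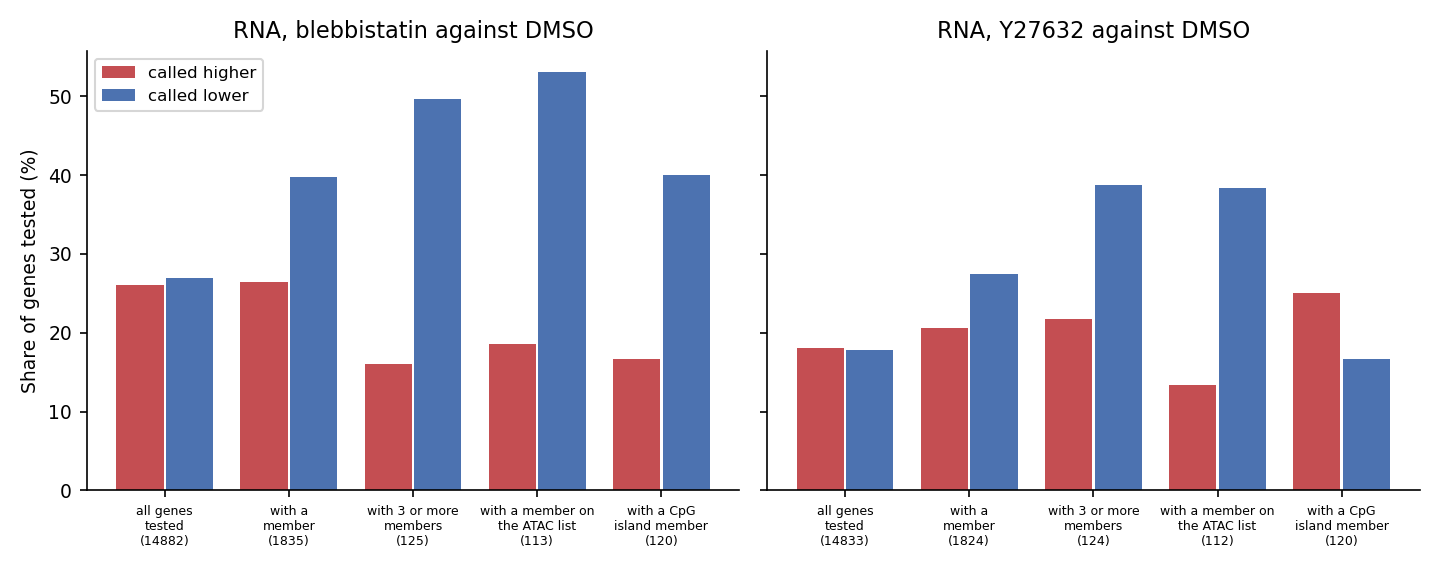
Share of tested genes called higher (red) or lower (blue) by limma, in percent, for blebbistatin (left) and Y27632 (right) against DMSO, with the number of genes tested under each set. With blebbistatin the blue bar rises from 26.9% of all genes to 39.7% of genes with a member and 49.6% of genes with 3 or more.

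Targets of Yap and Taz were the list with the largest share of genes with a member, 50%, while 12.3% of all genes tested for RNA had one. Every other list described below also stood above 12.3%, from 24% (actin and SRF targets) to 41.7% (Hippo pathway). Marker lists ran from 0% (blood) to 40% (endothelial, 2 of 5). Gene length was not matched, and the lists were chosen with earlier results of these data known. Some lists share genes and so are not separate counts. Among genes with a member, Amotl2 and Ptpn14 are in both the Yap and Taz target list and the Hippo list. Tgfb3 and Tgfbr2 are in both the tendon identity list and the TGF-beta and BMP list. Of the 22 listed targets 11 had at least 1 member, in 18 sites. The strongest sites stood before Amotl2, an angiomotin family gene: chr9:102715559-102715751 rose from 5.71 to 7.77 and chr9:102715097-102715353 from 5.97 to 8.0, at rank 8 and rank 16 by p-value and 2149 and 2579 bp from the start. The sites near Ankrd1 (chr19:36129191-36129562, 5.87 to 7.28), Nuak2 (chr1:132341932-132342070, 4.55 to 5.94) and Ccn1 (chr3:145632944-145633234, 6.3 to 7.54) rose by 1.41, 1.39 and 1.23. The 3 sites near F3, the tissue factor gene, rose by 1.0 to 1.05, and the site annotated to Ccn2 lay 112738 bp away and rose by 1.01.

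All 11 targets with a member were called lower with blebbistatin, and 6 of them by a log2 change of at least 1. In the whole list of 22, 16 were lower and 4 higher, and over all genes tested 26.9% were lower and 26.1% higher. Amotl2 RNA measured 21420, 21630 and 21420 normalised counts with DMSO and 4321, 4822 and 4652 with blebbistatin, a log2 change of -2.23 (SE 0.0384, adjusted p = 1.59e-12). Ccn1, which encodes a matricellular protein, measured 9898, 10690 and 10940 with DMSO and 2346, 2666 and 2818 with blebbistatin, a log2 change of -2.01 (SE 0.0593, adjusted p = 7.3e-11). Nuak2, a kinase gene, measured 1638, 1720 and 1798 and then 411.3, 424.2 and 474.1, a log2 change of -1.98 (SE 0.0611, adjusted p = 1.04e-10). In all 3 genes every blebbistatin library lay below every DMSO library. Ccn2 changed by -1.60, the cardiac ankyrin repeat gene Ankrd1 by -1.36, and the RNA-binding protein gene Rbms3, which has 3 members, by -1.05.

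With Y27632, 9 of the same 11 were called, 7 lower and 2 higher, beside 11 lower and 5 higher of the 22. Amotl2 fell by 0.49 on the log2 scale and Ankrd1 by 0.57. Nuak2 rose by 0.18, with 1703, 1785 and 1868 with DMSO and 2150, 1791 and 2124 with Y27632, so that the libraries overlapped. F3 rose by 0.13. Ccn2 and Fjx1 were not called, at -0.11 (adjusted p = 0.267) and 0.03 (adjusted p = 0.853).

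**Figure D5:**
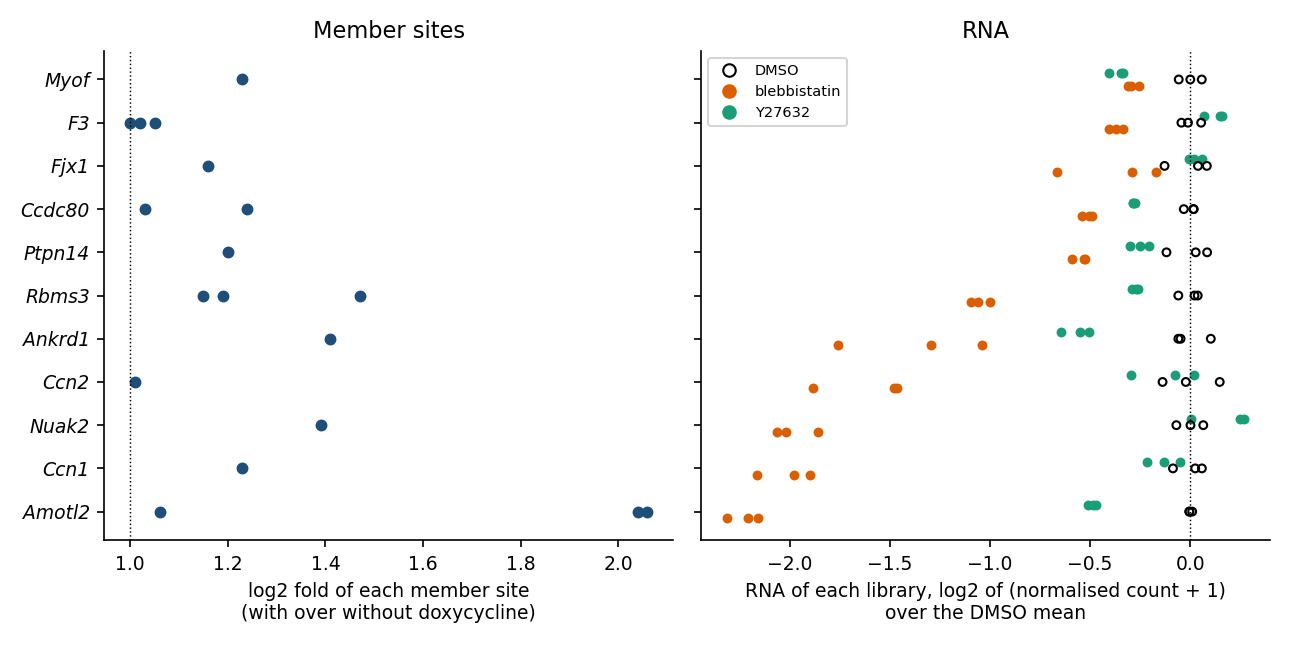
Left, log2 fold of each member site with over without doxycycline, from the authors' deposited table, for the 11 Yap and Taz targets that have a member, with a dotted line at the limit of 1. Right, RNA of each library as log2 of (normalised count + 1) over the DMSO mean of the same table, for DMSO (open, from the blebbistatin table), blebbistatin (orange) and Y27632 (green). Every orange point is left of the DMSO points, and the green points of Nuak2 and F3 lie right of the DMSO mean.

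Of 24 genes of the Hippo pathway, the kinase cascade that keeps Yap and Taz out of the nucleus, and its TEAD partners, 10 had a member. Sites in introns of Wwc1, an upstream scaffold (chr11:35948574-35948741, 4.49 to 6.31), and of the kinase gene Stk4 (chr2:164077054-164077327, 4.99 to 6.71) had the largest folds beside Amotl2. Tead1 held 2 members in its first intron (chr7:112700180-112700519 and chr7:112720068-112720553), which rose by 1.16 and 1.04. With blebbistatin 8 of the 10 genes were called, 5 lower and 3 higher, beside 12 lower and 7 higher of the whole list of 24. Tead1 RNA measured 9084, 8983 and 7952 with DMSO and 4158, 4003 and 4065 with blebbistatin, a log2 change of -1.09 (SE 0.0464, adjusted p = 1.65e-09), with no overlap. The TEAD cofactor gene Vgll3 changed by -1.46 and the atypical cadherin gene Fat4 by -1.13. Vgll4, whose product competes with Yap for TEAD, rose by 0.67, and Wwtr1, which encodes Taz, by 0.33. Amotl2, the gene with the largest site folds of this list, changed by -2.23. Stk4 (-0.07, adjusted p = 0.174) and Wwc1 (-0.02, adjusted p = 0.963), whose site folds came next, were not called. Wwc1 RNA was low, at 28.79 to 56.29 normalised counts, and its change had an SE of 0.246. With Y27632 7 of the 10 were called, 4 lower and 3 higher, beside 10 and 6 of the 24.

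Actin and SRF target genes had 6 of 25 with a member. Their sites had log2 folds from 1.01 at Actb to 1.37 near Tpm1 (chr9:67071655-67071906, 4.63 to 6.0), beside a median of 1.17 for all members. All 6 genes were called with blebbistatin, 5 lower and 1, the myosin light chain kinase gene Mylk, higher. The whole list had 17 lower and 2 higher of 23 tested. Fhl2, a LIM-domain cofactor gene, measured 2213, 2251 and 2342 with DMSO and 525.6, 576.3 and 514.5 with blebbistatin, a log2 change of -2.07 (SE 0.0517, adjusted p = 2.07e-11). Tpm1 changed by -1.07, Tpm4 by -0.84, Actb by -0.78 and the myosin heavy chain gene Myh9 by -0.47. The same 5 were lower with Y27632, Tpm1 by -0.71 and Fhl2 by -0.74, and 18 of the 23 were lower in the whole list.

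Integrin and adhesion genes had 9 of 24 with a member, in 17 sites. The largest fold was near Itgb1, the common beta chain of many matrix receptors (chr8:128633573-128633749, 3.29 to 5.46), a SINE site 51993 bp from the start. Tns3, a tensin that ties integrins to actin, held 6 members with folds of 1.01 to 1.27. With blebbistatin all 9 were called, 6 lower and 3 higher, and the whole list of 24 had 14 lower and 5 higher. Nedd9, an adhesion scaffold gene with 3 members, measured 2947, 3252 and 3117 with DMSO and 1357, 1445 and 1502 with blebbistatin, a log2 change of -1.11 (SE 0.0481, adjusted p = 1.85e-09). Tns3 changed by -0.76 and Itgb1 by -0.21. The collagen receptor gene Itga2 rose by 1.02 from a low level, with 55.6, 49.64 and 44.8 with DMSO and 87.25, 98.66 and 122.2 with blebbistatin (adjusted p = 0.00021). Itga4 rose by 0.51 (adjusted p = 0.0251), a call that was lost with DESeq2 (adjusted p = 0.0632) and without DMSO replicate 3 (0.0983), blebbistatin replicate 2 (0.0558) or blebbistatin replicate 3 (0.0838). With Y27632 5 of the 9 were called, beside 14 of the 24, and Itga4 rose by 0.99.

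Structural matrix genes had 8 of 28 with a member, in 17 sites. Eln, the elastin gene, had the largest fold, in intron 6 (chr5:134730815-134731065, 4.98 to 6.91). Col5a2 had 4 members between 77327 and 123636 bp from its start, with folds of 1.59, 1.56, 1.21 and 1.05, and Col11a1 had 1 at 1.57 (chr3:114289054-114289311). All 8 genes were called lower with blebbistatin, each by less than 1 on the log2 scale, while the whole list of 28 had 15 lower and 7 higher. Col5a2 RNA measured 248400, 254000 and 243100 with DMSO and 177200, 183400 and 172700 with blebbistatin, a log2 change of -0.48 (SE 0.0365, adjusted p = 2.78e-07), with no overlap. Eln changed by -0.42, Tnc by -0.34 and Fbn1 by -0.39. Col1a2 changed by -0.12 (adjusted p = 0.0314), with overlapping libraries. Fbn2, at 11.94 to 27.58 normalised counts, changed by -0.84 (adjusted p = 0.0167), and this call was lost with DESeq2 (adjusted p = 0.0721) and without DMSO replicate 2 (0.0605) or DMSO replicate 3 (0.0506). With Y27632 2 of the 8, Col5a2 and Tnc, were called, both lower, beside 7 lower and 9 higher of the 28.

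Genes of matrix degradation had 7 of 26 with a member. The larger of 2 Timp3 sites (chr10:86290049-86290620), which lies 10077 bp from the start of this inhibitor of metalloproteinases, rose from 6.51 to 8.11. All 7 genes were called with blebbistatin, 4 lower and 3 higher, and 22 of the whole list of 26, 9 lower and 13 higher. The aggrecan-cleaving protease gene Adamts5 measured 34850, 36970 and 34420 with DMSO and 10240, 10110 and 10400 with blebbistatin, a log2 change of -1.79 (SE 0.0332, adjusted p = 2.61e-12). The site annotated to Adamts5 (chr16:85999466-85999759, 5.40 to 6.55) lay 98488 bp from the gene's start and 267 bp from a row of the blebbistatin table. Adamts15 went the other way, from 66.52, 90.46 and 80.41 to 962.9, 837.8 and 948.2, a log2 change of 3.53 (SE 0.11, adjusted p = 1.1e-10). The site annotated to Adamts15 (chr9:30794716-30795275) lay 125954 bp from the gene's start and rose by 1.0, the limit of the table. Timp3 changed by -1.34. Timp2, whose member held 2 falling ATAC sites, rose by 0.24 with blebbistatin and by 0.29 with Y27632. With Y27632 Adamts15 rose by 1.66 and Adamts5 fell by 0.56, and 11 of the 26 were lower and 12 higher.

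TGF-beta and BMP genes had 7 of 21 with a member. The largest fold was near Fst, which encodes the activin antagonist follistatin (chr13:114493948-114494144, 4.01 to 5.86). Bmp4 had 3 members, and its RNA measured 649.4, 607.8 and 650.2 with DMSO and 142.3, 155.4 and 153.4 with blebbistatin, a log2 change of -2.07 (SE 0.0738, adjusted p = 3.39e-10). Fst changed by -1.56. Smad3, a signal transducer of this pathway, changed by -0.21 with blebbistatin and by 0.48 with Y27632. With blebbistatin 6 of the 7 were called, 5 lower and 1 higher, and with Y27632 5, 2 lower and 3 higher. The whole list of 21 had 11 lower and 5 higher with blebbistatin, and 5 lower and 8 higher with Y27632. Tendon identity genes had 5 of 15 with a member, and 3 were called with blebbistatin, 2 lower and 1 higher, beside 4 lower and 6 higher of the 15. Mkx, a tendon transcription factor gene with 2 members, rose by 0.13. The receptor gene Tgfbr2, which held a member in its first intron (chr9:116161072-116161365, 5.35 to 6.90), changed by -0.10.

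AP-1 genes had 3 of 12 with a member. Mafk, a small Maf gene, held one in intron 1 (chr5:139797830-139798127, 6.51 to 8.08), and its RNA changed by -0.42 with blebbistatin. Fos RNA measured 121.8, 101.9 and 111 with DMSO and 372.8, 322.3 and 398.3 with Y27632, a log2 change of 1.70 (SE 0.105, adjusted p = 7.74e-08), and rose by 0.44 with blebbistatin. Fosb was called with neither treatment, at 0.12 (adjusted p = 0.535) and -0.24 (adjusted p = 0.251). Of the 10 list genes tested, 2 were lower and 4 higher with blebbistatin, and 7 were called with Y27632, each higher.

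The genes with the most members mostly fell with blebbistatin as well. Of the 10, Ddi1 was not tested, 6 were called lower and 3 were not called, beside 26.9% lower of all genes tested. Dlc1, with 8 members, measured 3401, 3477 and 3126 with DMSO and 2002, 2034 and 2025 with blebbistatin, a log2 change of -0.72 (SE 0.0422, adjusted p = 2.65e-08), with no overlap. Magi3, a junction scaffold gene, changed by -0.90, Marcks, an actin-binding protein gene, by -0.55, and Ldlrad4 by -0.53. Rbfox1, near 14 normalised counts with DMSO, changed by -0.06 (adjusted p = 0.914). With Y27632 Dlc1 changed by -0.02 (adjusted p = 0.762), and Marcks rose by 0.22.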

How the data were processed

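Site tables were deposited by the authors as log2 group means and log2 folds, with p-value and FDR columns, per the file headers. They hold no value per library, so no error or test of sites was computed. DiffBind, MACS2, HOMER and the build mm10 are named in the submitters' processing notes, with no settings. The header of the untreated column in the doxycycline table names blebbistatin. Against a second table, 13 shared sites differed by -0.128 ± 0.00439 (SD) from untreated cells but by 1.12 ± 0.184 from cells with blebbistatin, so the column was read as untreated. Sites tested were estimated from FDR, rank and p-value. Overlap meant at least 1 bp. The GC fraction in the ATAC table was deposited by the authors and is used in no comparison of the report.

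RNA tables were deposited by the authors as a normalised signal per gene and library, counts divided by a size factor. The values show this: 100% of values were whole multiples of 1 step, within 0.05 of a read. HISAT2, featureCounts and DESeq2 are named in the submitters' processing notes, and use of strand is not given in the sources used here. Genes with a mean of at least 10 were tested with limma 3.58.1 (trend) in R 4.3.3 on log2(normalised count + 1), without a block, with Benjamini-Hochberg adjustment over all genes tested, since the values are normalised and not raw counts. This scale understates changes of low genes. The 2 tables were normalised separately, so the same DMSO libraries differ in scale between them. edgeR 4.0.16 and DESeq2 1.42.0 on recovered reads were alternatives, where edgeR and DESeq2 gave 1219 and 1113 called genes with a member for blebbistatin. The fit was tested on simulated data. Replicate numbers did not pair the samples: deviations of same-numbered libraries correlated at -0.151 to 0.0554.

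Named sites were the 5 largest intron and intergenic folds at an FDR under 0.01, the 3 smallest, sites annotated to list genes, and the 10 genes with most members. Sites took their gene from the deposited annotation. In the match of the 2740 gene names to RNA, 70 names were matched through an older symbol. The 4 names turned into dates were left out of that match only. Members and gene lists were chosen with earlier results of these data known. The Col1a1 and chromosome X groups, the tRNA stretch and the 5 printed windows were singled out after their values were seen. Columns without a matching label numbered 0.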

Additional observations from a re-analysis of the deposited data

How the results depend on the processing

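Called genes with a member numbered 757 to 890 for Y27632 and 1113 to 1219 for blebbistatin under edgeR, DESeq2, other pseudocounts, no filter, a mean of at least 50 and the replicate block, beside 875 and 1214. With the replicate block alone they numbered 791 and 1186. Leaving out 1 library at a time gave 754 to 824 and 1112 to 1159. Only sites within 50 kb of a start left 601 and 845. A log2 fold of at least 1.5 left 445 of the 3626 members, of which 0% were CpG islands and 4.27% L1 elements, beside 3.78% and 3.23%. At least 5 kb from a start, 1.08% were CpG islands. An FDR under 0.01 in both tables lowered the share of members on the ATAC blebbistatin table from 4.61% to 1.64%, by construction. Among 532 alternatives for the 41 gene changes of at least 0.5, 525 kept their call and direction and 7, of Itga4 and Fbn2 with blebbistatin, lost the call. None of the 532 turned direction. The alternatives on CpG islands and L1 elements were chosen after seeing the data. Motif shares over all members and their alternatives were not run, because no genome was used here. Site tables give no depth or spread, and folds near the limit of 1 decide membership for many sites.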
